A study of Mus musculus with 12 samples.

Results

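The genes described here encode the machinery of autophagy and of mitophagy, the autophagic removal of mitochondria. They were chosen by symbol from a list of 41 mouse genes. Exact symbols found 39 of the 41 in the deposited table of 37754 gene models with values, and all 39 were among the 14512 models that passed the filter on low values (at least 0.5 FPKM in at least 3 of 12 libraries). FPKM is a fragment count divided by transcript length and by the mapped fragments of the library. Map1lc3b was not analysed here. Atg101 was not found under that symbol; a model named 9430023L20Rik, at 15:101284300-101290934 (GRCm38), carries that gene by its RefSeq synonym and its position, and is given separately without being counted.

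RNA was sequenced from mammary glands of C57BL/6 mice in 4 groups of 3 libraries, which by the study's account stand for 3 mice in each group. JNK WT mice carried Wap-Cre-/+, a Cre recombinase driven by the promoter of the milk protein gene Wap. JNK KO mice carried Wap-Cre-/+ together with Mapk8 LoxP/LoxP and Mapk9 LoxP/LoxP, the flanked genes of the kinases JNK1 and JNK2. Both genotypes therefore expressed Cre in the secretory epithelium, and the deletion was directed to that epithelium while RNA came from whole glands, so that fewer cells of a type and less RNA per cell cannot be told apart, and other cell types keep JNK. Females aged 10 to 12 weeks at breeding nursed a first litter of 6 to 8 pups for 9 days. Glands were taken at weaning (day 0) or 3 days after the pups were removed (day 3), and the comparisons ask how gene expression differed before and during involution in each genotype.

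Autophagy encloses cytoplasm in a double membrane that fuses with lysosomes. The ULK1 kinase complex starts the process, a class III phosphatidylinositol 3-kinase complex marks the membrane, lipid carriers and scramblases extend it, and 2 conjugation reactions attach Atg8 proteins (the LC3 and GABARAP families) to its lipid. Cargo receptors bind both Atg8 proteins and the material to be removed. The involuting mammary gland sheds and degrades its milk-secreting cells, and lysosomal and autophagic activity in that epithelium has long been studied as part of this remodelling.

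Several features of the libraries touch every value below. Genes of milk secretion (14 markers) made up 57.3% to 77.1% of the summed FPKM on day 0, 1.61% to 6.14% on day 3 in JNK WT glands and 8.82% to 39.1% on day 3 in JNK KO glands. Deposited FPKM values rose over the whole table between the days, with a median log2 difference over all genes tested of 2.37 in JNK WT and 1.68 in JNK KO. After each library was divided by a median ratio factor, taken over genes against their geometric means (scaled FPKM), these medians were 0.07 and 0.05. A day difference on the scaled values is thus relative to the typical gene, and both scales are given. Milk markers (14 of 14) and luminal epithelial markers (6 of 6) were detected, as the labelled tissue implies. Mapk8 was at 1.95 to 2.65 FPKM in JNK WT and at 0.986, 0.965 and 2.78 FPKM in JNK KO glands on day 0, and at 6.57 to 7.90 against 1.25 to 3.57 FPKM on day 3. Mapk9 was at 2.48, 9.04 and 10.2 FPKM in JNK WT libraries of day 0 against 4.86, 4.33 and 8.78 FPKM in those of JNK KO, and at 16.1 to 18.1 against 5.26 to 10.5 FPKM on day 3. The library labelled JNK KO day 0 number 3 thus exceeded each day 0 library of JNK WT in Mapk8, so Mapk8 goes against its label. In Mapk9 it was the highest of its group at 8.78 FPKM, but below JNK WT libraries 2 and 3 (9.04 and 10.2 FPKM). Every JNK KO library of day 0 lay within the JNK WT range in Mapk9, whose low end was JNK WT library 1 at 2.48 FPKM. Without JNK KO day 0 library 3, 32 members in place of 34 passed the test between the days of JNK KO on deposited values, and 3 in place of 5 on scaled values.

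JNK WT day 0 library 1 stood apart from the other libraries of its group. Its Pearson correlation of log2 values with libraries 2 and 3 was 0.861 and 0.851, against 0.950 between libraries 2 and 3. Its departure from them followed transcript length. In scaled FPKM, the 3 members with exons of 1000 to 2000 bases lay at a median log2 of 1.32 above the mean of libraries 2 and 3, and the 12 members of 2000 to 4000 bases at 0.86 above it. The 15 members of 4000 to 8000 bases lay at -0.76 and the 9 longer ones at -0.43. For example, Gabarapl2 stood at 185 scaled FPKM in library 1 against 41.5 and 39.1, and Nbr1 at 14.8 against 61.5 and 56.7. Spearman's rho between exon length and this departure was -0.54 over the 39 members and -0.51 over 13394 genes with a length; the points share the same 3 libraries. Values without this library are given where it moves a result most.

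**Figure D1:**
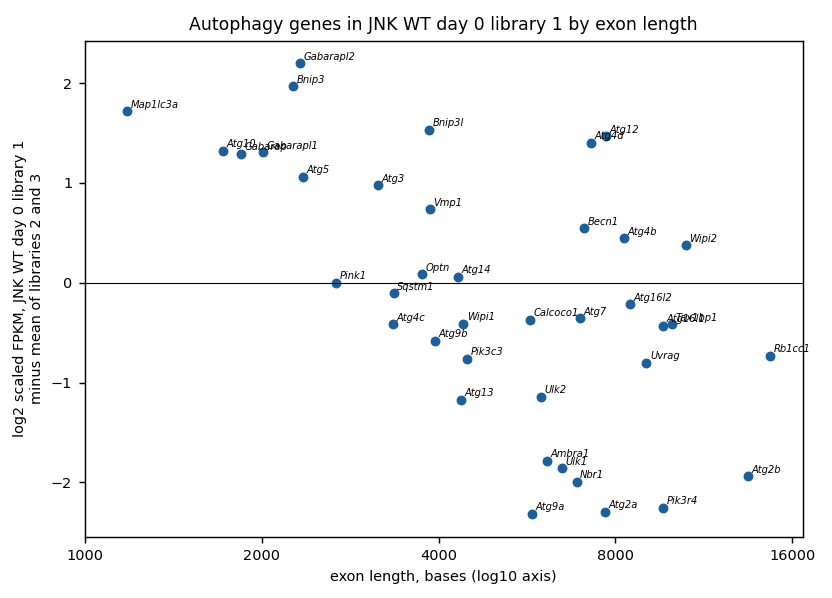
Departure of JNK WT day 0 library 1 from the mean of libraries 2 and 3 (vertical axis, log2 scaled FPKM) against exon length in bases (horizontal axis, log10 scale), 1 point for each of the 39 members. Short genes such as Map1lc3a, Gabarapl2 and Bnip3 lie above 0, and long genes such as Atg9a, Atg2a and Pik3r4 lie below it.

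Between day 0 and day 3 the deposited FPKM of nearly all members rose in both genotypes, but not by more than the table as a whole. In JNK WT glands 38 members rose and 0 fell, where 91.5% of all genes tested passed as higher (limma, Benjamini-Hochberg adjusted p under 0.05 over all genes). In JNK KO glands 33 members rose and 1, Atg9b, fell, where 80.0% of all genes passed as higher and 1.37% as lower. The members' median log2 difference was 2.18 in JNK WT and 1.78 in JNK KO, beside 2.37 and 1.68 over all genes. All 33 genes that rose in JNK KO were among the 38 of JNK WT. Mean deposited FPKM ran from 0.417 to 96.8 over the members in JNK WT on day 0, with 10 members at 10 FPKM or more, and from 0.455 to 424 on day 3, with 26 at 10 FPKM or more.

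Relative to the typical gene, most members did not pass the test and more fell than rose. On scaled values 3 members rose (Atg16l2, Calcoco1 and Atg14) and 8 fell (Atg9b, Tax1bp1, Gabarapl2, Atg5, Atg3, Atg4c, Rb1cc1 and Wipi2) in JNK WT, where 19.3% of all genes passed as higher and 16.1% as lower. In JNK KO 2 rose (Atg16l2 and Atg7) and 3 fell (Atg9b, Tax1bp1 and Rb1cc1), where the shares of all genes were 11.5% and 9.55%. The medians of the members were -0.25 and 0.02. Atg16l2 among the rises and Atg9b, Tax1bp1 and Rb1cc1 among the falls were called in both genotypes. Day 3 libraries lay wholly above those of day 0 in 37 members of JNK WT and 36 of JNK KO as deposited (90.6% and 84.0% of all genes), and wholly below in 0 and 1 (1.23% and 1.76%). After scaling they lay above in 8 and 11 members (25.5% and 25.6%) and below in 13 and 12 (21.7% and 23.9%). Scaling to the 75th percentile in place of the median ratio moved the median of all genes to 0.47 in JNK WT and 0.25 in JNK KO, and gave 10 rises and 5 falls among members in JNK WT, with 4 rises and 2 falls in JNK KO. The shares of all genes called under that scaling are not given here, so these counts cannot be read as a result about the members.

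Without JNK WT day 0 library 1, every one of these 16 calls on scaled values was kept and others joined them. In JNK WT 5 members then rose (23.4% of all genes) and 13 fell (23.0%), the additions being Gabarapl1 and Optn among the rises and Atg13, Nbr1, Pik3c3, Ulk2 and Wipi1 among the falls. In JNK KO 7 rose (20.4%) and 10 fell (19.4%), with Atg14, Atg2a, Gabarapl1, Map1lc3a and Pik3r4 added above and Atg4c, Atg5, Atg9a, Bnip3, Nbr1, Pik3c3 and Ulk2 added below. Deposited values without that library gave 37 rises and 1 fall in JNK WT (91.0% and 1.85% of all genes), and 36 rises and 1 fall in JNK KO (86.0% and 1.72%).

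**Figure D2:**
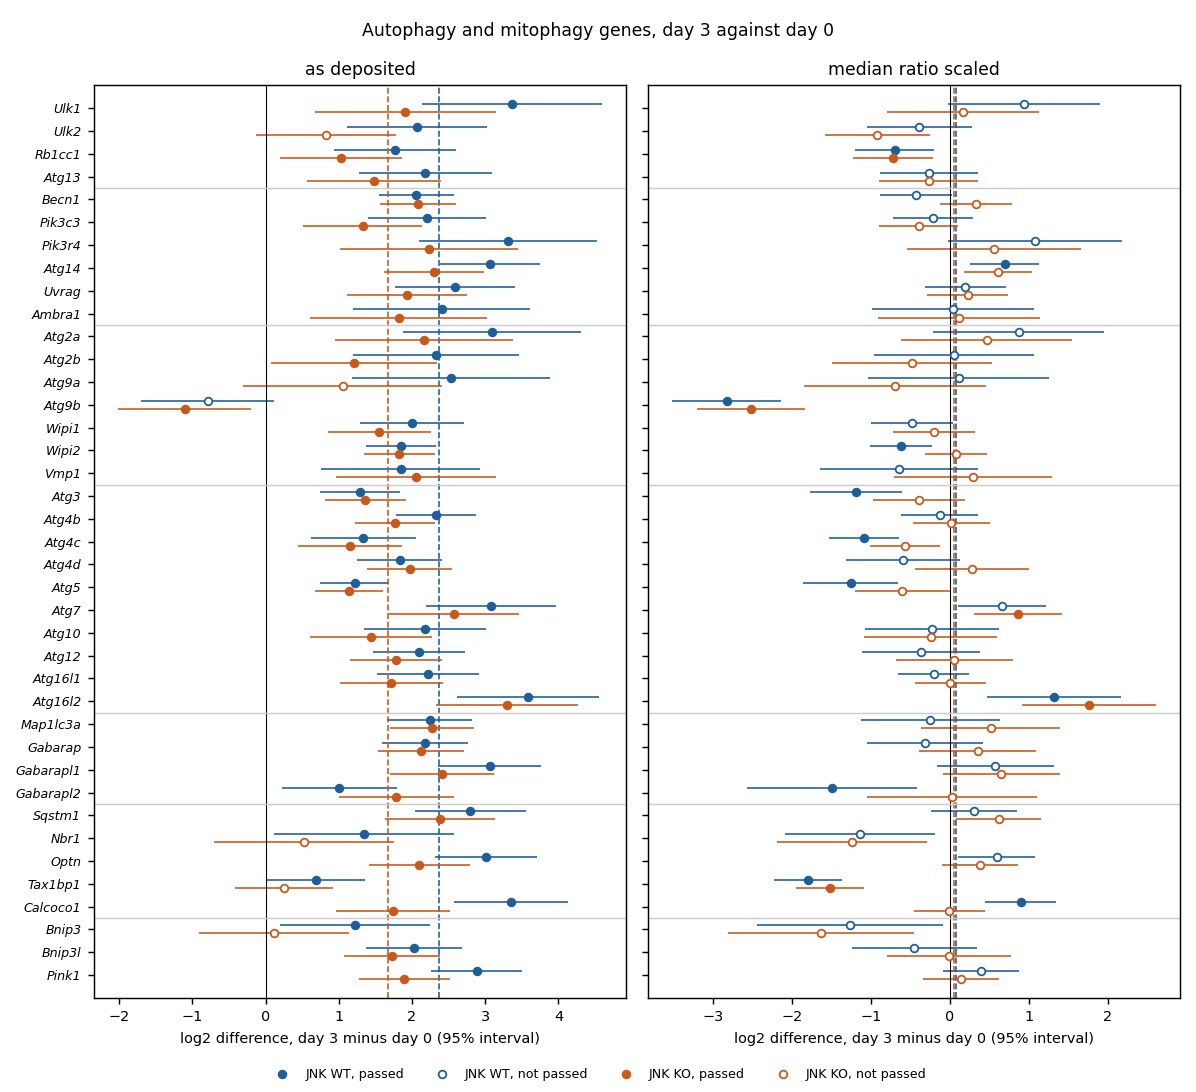
Log2 difference of day 3 minus day 0 (horizontal axis) for the 39 members, grouped by role, in JNK WT (blue) and JNK KO (orange), as deposited (left) and median ratio scaled (right); bars are 95% intervals, filled points passed the test, and dashed lines mark the median of all genes. On the left nearly all points lie above 0 and around the dashed lines, and on the right they spread around 0 with Atg9b and Tax1bp1 far below it.

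The ULK1 complex was led in level by Ulk1, the kinase itself, and the single member of it that changed on scaled values was Rb1cc1, the large scaffold also called FIP200. Scaled FPKM of Rb1cc1 was 8.11, 15.5 and 11.8 for JNK WT against 14.2, 13.8 and 16.5 for JNK KO on day 0 (libraries 1, 2 and 3). On day 3 it was 6.54, 7.15 and 7.24 for JNK WT (libraries 3, 6 and 12) against 7.92, 9.85 and 9.04 for JNK KO (libraries 3, 4 and 6); day 3 libraries stood below all day 0 libraries of their genotype. The fall was -0.70 ± 0.23 (SE; adjusted p = 0.0342) in JNK WT and -0.72 ± 0.23 (adjusted p = 0.0446) in JNK KO by limma, whereas its deposited FPKM rose by 1.77 and 1.03 log2. These scaled calls were narrow: leaving out any 1 of 6 of the 12 libraries ended the call in JNK WT, and any 1 of 10 ended it in JNK KO. Over all 12 omissions, whether or not the call ended, the values were -0.95 to -0.48 in JNK WT and -0.79 to -0.64 in JNK KO.

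Ulk1 and its paralog Ulk2 moved apart between the days. Ulk1 was at 0.626, 3.80 and 4.36 FPKM in JNK WT on day 0 and at 21.5, 23.0 and 27.7 FPKM on day 3, and at 6.99, 4.31 and 3.35 and then 13.6, 19.5 and 21.2 FPKM in JNK KO. Its deposited level rose by 3.37 log2 in JNK WT (adjusted p = 1.2e-04) and 1.91 log2 in JNK KO (adjusted p = 0.0083), and on scaled values the differences were 0.94 and 0.16 with neither passing. The JNK WT values rested in part on day 0 library 1, without which they were 2.53 as deposited and 0.31 after scaling. The ratio of Ulk1 to Ulk2 within a library, which no scaling between libraries can alter and which is given, like all ratios here, with no test, was 0.427 to 1.22 on day 0 and 1.33 to 2.09 on day 3, with no overlap between the days. Ulk2 itself differed by -0.39 (JNK WT) and -0.92 (JNK KO) log2 on scaled values, neither passing; without JNK WT day 0 library 1 both passed at -0.77 and -0.93. Atg13, the adaptor of the complex, was at -0.26 and -0.27. The model that carries Atg101 had a scaled difference of 0.18 in JNK WT and 0.37 in JNK KO, neither passing.

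All 6 members of the class III phosphatidylinositol 3-kinase complexes rose in deposited FPKM in both genotypes. Of all genes 91.5% did so in JNK WT and 80.0% in JNK KO. Atg14 was the one that also rose on scaled values, in JNK WT. Atg14 directs the kinase to sites where autophagosomes form. It stood at 1.75, 1.75 and 1.60 scaled FPKM in JNK WT on day 0 and at 2.48, 2.91 and 3.10 on day 3, and at 2.78, 1.85 and 2.06 and then 3.19, 3.48 and 3.54 in JNK KO. Day 3 libraries were above day 0 libraries in both genotypes. The rise was 0.69 ± 0.20 log2 (SE; limma adjusted p = 0.0194) in JNK WT, and the difference in JNK KO was 0.61 ± 0.20 (adjusted p = 0.0503). The JNK WT call was lost without day 3 library 6 (0.67) or day 3 library 12 (0.62), and the JNK KO difference passed at 0.60 without JNK WT day 0 library 1.

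Becn1, the scaffold of these complexes and their most abundant transcript, kept close to the typical gene. Its deposited FPKM was 9.23, 10.8 and 11.1 for JNK WT against 7.62, 7.36 and 10.4 for JNK KO on day 0. On day 3 the values were 40.6, 38.5 and 52.3 for JNK WT against 28.6, 39.2 and 40.4 for JNK KO, which differed from day 0 by 2.06 and 2.08 log2. On scaled values the differences were -0.43 and 0.33, neither passing. Exons of Cntd1 on the opposite strand overlap 43.9% of the Becn1 exon bases, and strand handling in the counting is not given in the sources used here. The other 4 members, Pik3c3 (the lipid kinase), Pik3r4, Uvrag and Ambra1, lay between -0.40 and 1.08 log2 on scaled values with none passing, and Pik3c3 passed in both genotypes (-0.47 and -0.40) without JNK WT day 0 library 1.

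Among the genes of membrane growth, Atg9b had the largest relative fall of all members. ATG9 proteins are lipid scramblases carried on small vesicles, and Atg9b is the paralog of the widely expressed Atg9a. Atg9b was at 0.430, 1.27 and 1.03 FPKM in JNK WT on day 0 and at 0.432, 0.317 and 0.616 FPKM on day 3. In JNK KO it was at 0.621, 0.527 and 1.08 and then at 0.208, 0.269 and 0.373 FPKM. These are low levels near the filter on low values, and the JNK WT day 0 and day 3 libraries overlapped before scaling. Atg9b passed that filter through day 0, since on day 3 only JNK WT library 12 (0.616 FPKM) reached 0.5 FPKM. The filter and the fall thus rest on the same libraries. On scaled values the days did not overlap, and the fall was -2.83 ± 0.31 log2 (SE; limma adjusted p = 1.0e-04) in JNK WT and -2.52 ± 0.31 (adjusted p = 3.3e-04) in JNK KO. The deposited differences pointed the same way at -0.79 (adjusted p = 0.0876) and -1.10 (adjusted p = 0.0278), and the latter call was lost without JNK KO day 0 library 3, JNK KO day 3 library 3 or JNK KO day 3 library 4, with values of -0.83, -0.96 and -1.09. Without JNK WT day 0 library 1 the deposited JNK WT fall passed at -1.20.

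Vmp1, an endoplasmic reticulum protein needed for the growing membrane, was the most abundant of this group and the most scattered. Its deposited FPKM was 13.2, 12.4 and 15.2 for JNK WT against 9.11, 12.4 and 10.5 for JNK KO on day 0. On day 3 it was 38.2, 44.7 and 68.4 for JNK WT against 17.7, 109 and 44.7 for JNK KO, so that the JNK KO libraries spanned those of JNK WT. The microRNA gene Mir21a lies in its exons. Wipi2, a reader of the lipid that the kinase complex makes, fell by 0.62 on the log2 scale in JNK WT after scaling (adjusted p = 0.0191), though its deposited FPKM rose by 1.85; the scaled call was lost without JNK WT day 3 library 12 (-0.56), and in JNK KO the scaled difference was 0.08. The lipid transfer genes Atg2a and Atg2b also parted, their ratio within a library being 0.583 to 1.06 on day 0 and 1.09 to 1.93 on day 3. Wipi1 to Wipi2 showed no such separation (0.877 to 2.15 on day 0 and 1.27 to 1.80 on day 3).

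The conjugation genes split in direction on scaled values. Atg16l2 rose in both genotypes, Atg7 in JNK KO, and Atg3, Atg5 and Atg4c fell in JNK WT. All 10 members rose in deposited FPKM in both genotypes, as did 91.5% of all genes in JNK WT and 80.0% in JNK KO. Atg16l2, a relative of the Atg16l1 protein that places the ATG5 and ATG12 conjugate on membranes, was at 0.227, 0.741 and 0.283 FPKM for JNK WT against 0.454, 0.223 and 0.212 FPKM for JNK KO on day 0. By day 3 it was at 4.41, 4.83 and 8.05 in JNK WT and at 2.27, 5.05 and 4.26 in JNK KO. Every day 3 library exceeded every day 0 library. The scaled rise was 1.32 ± 0.39 log2 (SE; limma adjusted p = 0.0214) in JNK WT and 1.76 ± 0.39 (adjusted p = 0.0083) in JNK KO. Atg16l2 passed the filter on low values through day 3, since on day 0 only JNK WT library 2 (0.741 FPKM) reached 0.5 FPKM. The filter and the rise thus rest on the same libraries. The JNK WT call was lost without day 0 library 3 (0.99) or day 3 library 12 (1.13). The ratio of Atg16l1 to Atg16l2 was 3.20 to 8.98 on day 0 and 1.34 to 2.57 on day 3, so Atg16l1 remained the more abundant of the pair in all 12 libraries. The macrophage markers (11 genes tested) had a summed scaled FPKM of 57.2 to 183 on day 0 and 234 to 713 on day 3; their part in the rise of Atg16l2 was not tested.

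Atg7, the activating enzyme of both conjugation reactions, was at 2.56, 3.32 and 3.29 scaled FPKM in JNK WT on day 0 and at 4.43, 4.02 and 6.41 on day 3. In JNK KO it was at 3.83, 2.61 and 2.64 and then at 4.36, 5.71 and 6.64. The days did not overlap in either genotype. The rise in JNK KO was 0.86 ± 0.25 log2 (SE; limma adjusted p = 0.0338) and the difference in JNK WT was 0.66 ± 0.25 (adjusted p = 0.0638). Leaving out any 1 of 4 JNK KO libraries (2 and 3 of day 0, 4 and 6 of day 3) ended the JNK KO call, with values of 0.73 to 0.83.

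Atg3, the enzyme that hands Atg8 proteins to the lipid, was the most abundant conjugation gene. It stood at 27.3, 12 and 16.0 scaled FPKM in JNK WT on day 0 and at 7.72, 7.92 and 7.08 on day 3, and at 14.3, 17.9 and 13.8 and then 11.0, 12.7 and 11.2 in JNK KO. Its fall of 1.19 ± 0.27 log2 in JNK WT after scaling (SE; limma adjusted p = 0.0060) stood against a deposited rise of 1.29, and in JNK KO the scaled difference was -0.39 (adjusted p = 0.33). Atg5, whose product is joined to ATG12, was at 21.0, 10.3 and 9.70 scaled FPKM on day 0 in JNK WT, falling to 5.26, 5.83 and 4.87 by day 3. In JNK KO it was at 8.64, 11.0 and 9.05 and then at 6.90, 5.61 and 6.26. It fell by 1.25 ± 0.27 in JNK WT after scaling (adjusted p = 0.0052), again against a deposited rise of 1.22, and differed by -0.60 (adjusted p = 0.14) in JNK KO. Without JNK WT day 0 library 1, where both short genes stood highest, the JNK WT falls were -0.87 and -0.91 and Atg5 passed in JNK KO at -0.61. Atg4c, a protease that trims Atg8 proteins, fell by 1.09 on the log2 scale in JNK WT (adjusted p = 0.0022), with a deposited rise of 1.34.

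Promoter sequence from RefSeq (GRCm38.p6; 250 bases before each start) matched 32 of the 39 members in 37 windows. CACGTG, an E-box bound by MITF and TFE factors among others, was found in 4 of the 37 member windows (Atg3, Atg5, Atg7 and Bnip3). It was found in 6.02% of all 32851 windows. TGANTCA, the AP-1 element that JUN proteins bind, was found in 0 of the 37 member windows and 6.75% of all windows. ACGTG, the core of the hypoxia response element, which every CACGTG also holds, was found in 12 of the 37 member windows (12 members) and 16.6% of all windows. The cyclic AMP element TGACGTCA was found in 1 of the 37 member windows (Atg16l2) and 1.55% of all windows. Motifs were sought on both strands, and a match is a description of letters only. Sequences are shown for 3 of the 4 E-box members, with CACGTG in capitals and bases inside the deposited gene model left off. The sequence searched for Atg7 lay wholly inside its deposited gene model, so none of it is shown. They are Atg3 (plus strand, chr16:45158579-45158783), Atg5 (plus strand, chr10:44268089-44268338) and Bnip3 (minus strand, chr7:138909520-138909756).
Atg3: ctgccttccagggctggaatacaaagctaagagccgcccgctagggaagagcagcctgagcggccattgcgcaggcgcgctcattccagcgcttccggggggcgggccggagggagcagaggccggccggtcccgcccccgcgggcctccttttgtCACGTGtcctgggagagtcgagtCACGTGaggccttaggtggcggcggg
Atg5: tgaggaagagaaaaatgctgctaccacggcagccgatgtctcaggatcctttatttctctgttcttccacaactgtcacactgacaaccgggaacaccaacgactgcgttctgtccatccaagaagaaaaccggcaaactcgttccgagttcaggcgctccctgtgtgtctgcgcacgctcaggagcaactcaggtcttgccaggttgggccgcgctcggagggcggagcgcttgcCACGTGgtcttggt
Bnip3: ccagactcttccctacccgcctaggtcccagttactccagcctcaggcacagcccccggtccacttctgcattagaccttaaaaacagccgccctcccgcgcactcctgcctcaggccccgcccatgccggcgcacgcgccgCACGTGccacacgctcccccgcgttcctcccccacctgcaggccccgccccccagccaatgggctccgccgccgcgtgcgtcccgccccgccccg
In JNK WT the deposited FPKM of these 3 genes rose. On scaled values Atg3 and Atg5 fell there, and Bnip3 differed by -1.26 without passing. In JNK KO the deposited FPKM of Atg3 and Atg5 rose, and that of Bnip3 differed by 0.12 without passing. Bnip3 is described further with the mitophagy genes.

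Gabarap was the most abundant of all 39 members. Deposited FPKM of Gabarap was 117, 62.5 and 110 for JNK WT against 115, 99.1 and 86.7 for JNK KO on day 0, and 416, 401 and 455 and 364, 442 and 502 on day 3. It rose by 2.18 and 2.12 log2 in the genotypes, and on scaled values the differences were -0.32 and 0.35, neither passing. The JNK WT difference turned to 0.11, again not passing, without day 0 library 1, which was at 380 scaled FPKM against 127 and 190. Gabarap supplied 55.6% to 72.8% of the summed FPKM of the 4 Atg8 genes measured here. On day 3 this share was 65.4% to 67.2% in JNK WT and 70.5% to 72.5% in JNK KO, with no overlap between the genotypes. On day 0 it was 55.6% to 69.96% in JNK WT and 69.99% to 72.8% in JNK KO. These day 0 groups all but met, and the lowest JNK WT value was that of library 1. The share of Gabarapl1 was 5.33% to 7.89% on day 0 and 6.88% to 14.1% on day 3. Exons of 1700101I11Rik on the other strand overlap 28.3% of those of Gabarapl1.

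Gabarapl2, another member of the GABARAP family, fell in JNK WT on scaled values, and its size rested on one library. It was at 185, 41.5 and 39.1 scaled FPKM in JNK WT on day 0 and at 23.5, 31.0 and 18.6 on day 3, and at 33.6, 37.4 and 31.4 and then 32.5, 41.3 and 30.8 in JNK KO. The fall was -1.49 ± 0.49 log2 (SE; limma adjusted p = 0.0356) in JNK WT, while its deposited FPKM rose by 1.0, and the scaled difference was 0.02 in JNK KO. Without JNK WT day 0 library 1 the fall in JNK WT was -0.76 (adjusted p = 0.015). The call was lost without day 3 library 3 (-1.48) or day 3 library 12 (-1.31). The difference between the genotypes in this change was 1.51 ± 0.69 (adjusted p = 0.39), and 0.78 (adjusted p = 0.19) without library 1.

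**Figure D3:**
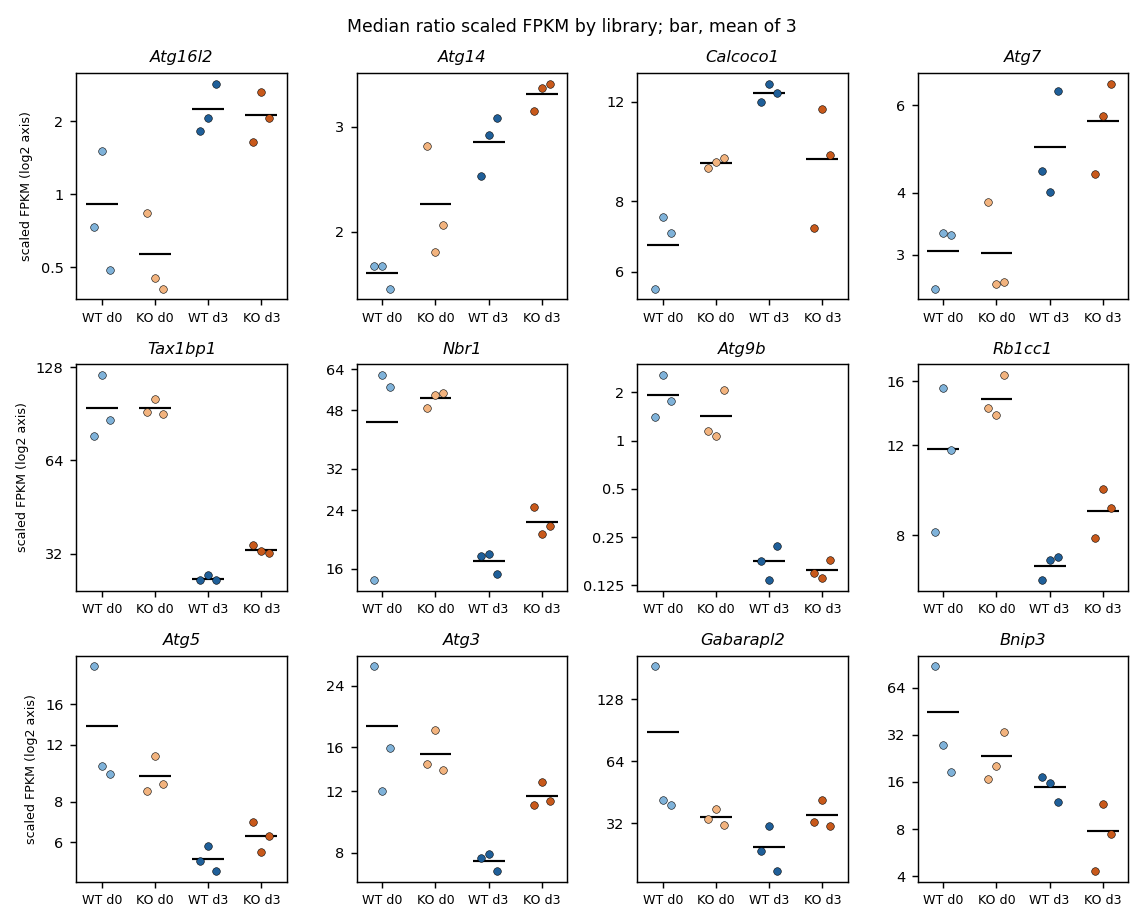
Median ratio scaled FPKM (vertical axis, log2 scale) of 12 members in each of the 12 libraries, by group, with a bar at the mean of 3. Atg16l2 is above its day 0 libraries on day 3 in both genotypes, Tax1bp1 and Atg9b are below them in both, and JNK WT day 0 library 1 (leftmost point of WT d0) lies away from its group for Gabarapl2, Bnip3 and Nbr1.

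The cargo receptors contained both the steepest relative fall of an abundant member, Tax1bp1, and a rise, Calcoco1. Tax1bp1, a ubiquitin-binding receptor that also restrains inflammatory signalling, was at 76.5, 121 and 86.2 scaled FPKM in JNK WT and at 92.0, 101 and 90.2 in JNK KO on day 0. On day 3 it was at 26.2, 27.2 and 26.2 in JNK WT and at 34.2, 32.6 and 32.0 in JNK KO. The highest day 3 library was under the lowest day 0 library. Within day 3 the scaled JNK KO libraries were above those of JNK WT, as in 17.7% of all genes. Deposited FPKM on day 3 overlapped, at 63.4 to 73.9 in JNK WT and 47.4 to 66.1 in JNK KO, and neither scale passed. The scaled fall between the days was -1.80 ± 0.19 log2 (SE; limma adjusted p = 9.2e-05) in JNK WT and -1.52 ± 0.19 (adjusted p = 4.2e-04) in JNK KO. In deposited FPKM Tax1bp1 moved the other way, at 0.69 (adjusted p = 0.0476) for JNK WT and 0.25 (adjusted p = 0.46) for JNK KO, and the first call was lost on leaving out any 1 of 9 of the 12 libraries (0.29 to 0.96 over all 12). No single library ended the call of its scaled fall.

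Sqstm1, which encodes the receptor p62, was the most abundant receptor, and its ratio to Nbr1, a related receptor, changed between the days. Sqstm1 was at 20.1, 40.8 and 34.6 FPKM for JNK WT against 43.5, 25.4 and 47.7 for JNK KO on day 0, and at 193, 213 and 233 and 130, 226 and 256 FPKM on day 3. It rose by 2.80 log2 in JNK WT (adjusted p = 1.4e-05) and 2.38 in JNK KO (adjusted p = 9.7e-05) as deposited, and by scaled values differed by 0.30 and 0.62 with neither passing. Nbr1, described here after its values were seen, was at 14.8, 61.5 and 56.7 scaled FPKM in JNK WT at weaning and 17.5, 17.7 and 15.4 by day 3. In JNK KO it was at 48.9, 53.5 and 54.0 and then at 24.5, 20.3 and 21.5. Apart from JNK WT day 0 library 1, day 3 libraries were below all day 0 libraries. The scaled differences were -1.14 (adjusted p = 0.0600) and -1.24 (adjusted p = 0.0630), and without that library -1.81 (adjusted p = 1.3e-05) and -1.25 (adjusted p = 5.5e-05), whereas the deposited differences were positive at 1.35 (adjusted p = 0.0373) and 0.52 (adjusted p = 0.39), the first being 0.42 without library 1. The Sqstm1 to Nbr1 ratio was 4.41, 1.35 and 1.05 for JNK WT against 1.64, 0.966 and 1.69 for JNK KO on day 0. On day 3 it was 4.57, 5.11 and 5.37 for JNK WT against 3.83, 5.78 and 5.77 for JNK KO, so that library 1 of JNK WT was the one day 0 library in the day 3 range.

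Calcoco1, a receptor for the endoplasmic reticulum and the Golgi, rose in JNK WT on both scales. It was at 5.59, 7.49 and 7.02 scaled FPKM on day 0 in JNK WT, with 12, 12.9 and 12.4 by day 3, and at 9.18, 9.39 and 9.53 and then 7.18, 11.6 and 9.68 in JNK KO. The groups of JNK WT did not overlap, and those of JNK KO did. The scaled rise was 0.89 ± 0.20 log2 (SE; limma adjusted p = 0.0063) in JNK WT, and the difference in JNK KO was -0.01. The change differed between the genotypes by -0.90 (adjusted p = 0.27) on scaled and by -1.62 (adjusted p = 0.14) on deposited values, so a difference between them was not established. Optn, the remaining receptor, differed by 0.59 and 0.38 on scaled values, neither passing, and passed in JNK WT (0.62) without day 0 library 1.

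**Figure D4:**
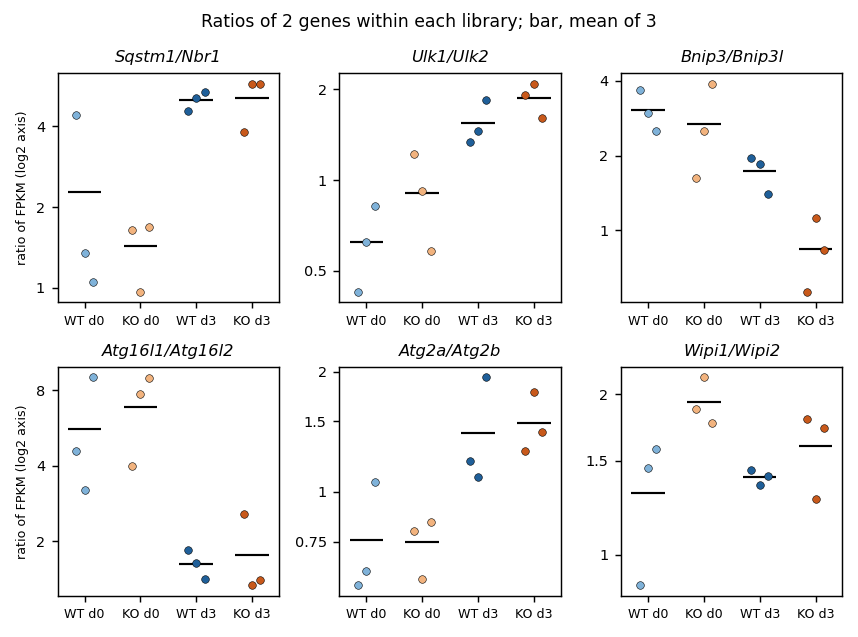
Ratio of the FPKM of 2 genes within each library (vertical axis, log2 scale) for 6 pairs, by group, with a bar at the mean of 3. The days separate for Ulk1 to Ulk2, Atg16l1 to Atg16l2 and Atg2a to Atg2b, and for Sqstm1 to Nbr1 apart from JNK WT day 0 library 1 at 4.41.

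The 3 mitophagy genes all rose in deposited FPKM in JNK WT, and Bnip3 alone of them did not pass in JNK KO. Of all genes 91.5% passed as higher in JNK WT and 80.0% in JNK KO. BNIP3 and its paralog BNIP3L are receptors in the outer mitochondrial membrane, and PINK1 is the kinase that marks damaged mitochondria. Bnip3 was at 27.3, 13.5 and 10.8 FPKM in JNK WT on day 0 and at 41.4, 37 and 33.6 FPKM on day 3, and at 9.08, 9.97 and 17.5 and then 5.94, 22.3 and 15.3 FPKM in JNK KO. The rise in JNK WT was 1.22 ± 0.47 log2 (SE; limma adjusted p = 0.0254) and the difference in JNK KO was 0.12 ± 0.47 (adjusted p = 0.82). On scaled values Bnip3 differed the other way, by -1.26 (adjusted p = 0.0884) and -1.63 (adjusted p = 0.0515), and without JNK WT day 0 library 1, which was at 88.4 scaled FPKM against 27.5 and 18.5, the JNK WT difference was -0.61 (adjusted p = 0.24) and the JNK KO fall passed at -1.64. The deposited JNK WT call was lost without day 0 library 2 (1.11) or 3 (0.95) or without day 3 library 3 (1.15) or 6 (1.23). Antisense exons of Gm45507 overlap 22.3% of those of Bnip3.

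Pink1 was at 8.22, 13.1 and 15.5 FPKM in JNK WT on day 0 and 94.5, 90.2 and 80.4 on day 3, and at 13.9, 9.15 and 16.1 and then 41.3, 45.9 and 57.0 in JNK KO. It rose by 2.88 (adjusted p = 4.1e-06) and 1.90 log2 (adjusted p = 1.2e-04), and on scaled values the differences were 0.39 and 0.14, neither passing. The ratio of Bnip3 to Bnip3l was 2.52 to 3.69 in JNK WT and 1.63 to 3.90 in JNK KO on day 0. On day 3 it was 1.40 to 1.96 in JNK WT and 0.567 to 1.13 in JNK KO, with no overlap between the genotypes on that day. A pseudogene of Bnip3l is annotated, and reads shared with it could be assigned to either.

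The effect of JNK loss was then compared on each day. On day 0 no member passed in either direction (0 of 39 on both scales), where 0.00689% of all genes passed in each direction. An unadjusted p under 0.05 was reached by 0 members on deposited and 2 on scaled values, and by 3.10% and 6.48% of all genes. The members' median log2 difference, JNK KO minus JNK WT, was 0.17 on deposited and -0.03 on scaled values, beside 0.18 and 0.01 over all genes. All JNK KO libraries lay above all JNK WT libraries in 1 member as deposited and 3 after scaling (4.05% and 4.18% of all genes), and below them in 3 and 5 (3.84% and 5.59%). On day 3 again 0 members passed on either scale, where 0.544% of all genes passed as higher and 5.62% as lower on deposited values and 0.338% and 0.117% on scaled values. An unadjusted p under 0.05 was reached on day 3 by 4 members on deposited and 3 on scaled values, and by 24.9% and 14.2% of all genes. The median difference of all 39 members on day 3 was -0.30 on deposited values, beside -0.48 over all genes. On scaled values it was 0.20, beside 0.01. In 11 members all JNK KO libraries lay below all JNK WT libraries in deposited FPKM, where 43.9% of all genes did so, and in 0 members above, where 2.81% did. On scaled values 15 members were above (17.7% of all genes) and 2 below (15.2%).

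Bnip3, Pink1 and Calcoco1 had the largest differences between the genotypes on day 3 in deposited FPKM. Bnip3 stood at 41.4, 37 and 33.6 FPKM in JNK WT and at 5.94, 22.3 and 15.3 FPKM in JNK KO, without overlap. Its difference was -1.55 log2 (95% interval -2.57 to -0.52; limma adjusted p = 0.0736) on deposited and -1.03 (-2.21 to 0.15; adjusted p = 0.44) on scaled values. Pink1 differed by -0.89 (-1.51 to -0.26; adjusted p = 0.0888) on deposited and -0.37 (adjusted p = 0.51) on scaled values, and its scaled libraries overlapped. Calcoco1 differed by -0.93 (adjusted p = 0.14) and -0.41 (adjusted p = 0.40), without overlap on either scale. These calls depended on the fit. A pseudocount of 1 in place of 0.1 brought Bnip3 (-1.47, adjusted p = 0.0367) and Pink1 (-0.87, adjusted p = 0.0434) past the threshold, a fit on the 2 groups alone brought Pink1 (adjusted p = 0.0385), and leaving out JNK WT day 0 library 1 brought Bnip3 (adjusted p = 0.0293), Pink1 (0.0229), Calcoco1 (0.0344) and Ulk2 (-0.70, adjusted p = 0.0441), where 17.8% of all genes then passed as lower. On scaled values the same omission brought Atg13 (0.52, adjusted p = 0.0389) and Atg3 (0.62, adjusted p = 0.0438) past it as higher in JNK KO, where 3.42% of all genes passed as higher.

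Other cell types differed between the day 3 groups alongside these genes. The 6 skeletal muscle markers tested had a summed FPKM of 6428, 6527 and 404 for JNK WT against 1.90, 1.58 and 101 for JNK KO on day 3, and all 6 of 6 passed as lower in JNK KO on deposited values, with none at 0 in all 3 libraries. JNK WT day 3 library 12, with the lowest muscle sum of its group (404 FPKM, above the 101 FPKM of the highest JNK KO library), had Bnip3 at 33.6, Pink1 at 80.4 and Calcoco1 at 35.0 FPKM. The 8 adipocyte markers summed to 7758, 4680 and 11047 FPKM for JNK WT against 1424, 4225 and 2872 FPKM for JNK KO, and 2 of 8 passed as lower. The 11 macrophage markers summed to 861 to 2008 FPKM in JNK WT and 325 to 795 FPKM in JNK KO. The 6 myoepithelial markers summed to 226 to 409 and 171 to 224 FPKM. Both were without overlap, though 0 markers of either list passed, and 43.9% of all genes lay wholly lower in JNK KO as deposited. After scaling the adipocyte, macrophage and myoepithelial sums overlapped. The muscle sums did not, but 0 of 6 muscle markers passed. The scaled sum of 6 luminal epithelial markers was 402 to 511 in JNK WT and 539 to 982 in JNK KO, with 0 passing. The share of milk genes in the JNK KO libraries of day 3 was 39.1% (library 3), 14% (library 4) and 8.82% (library 6). The part of muscle, adipocytes, macrophages, myoepithelium, luminal epithelium and milk-secreting cells in the differences of Bnip3, Pink1 and Calcoco1 was not tested.

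**Figure D5:**
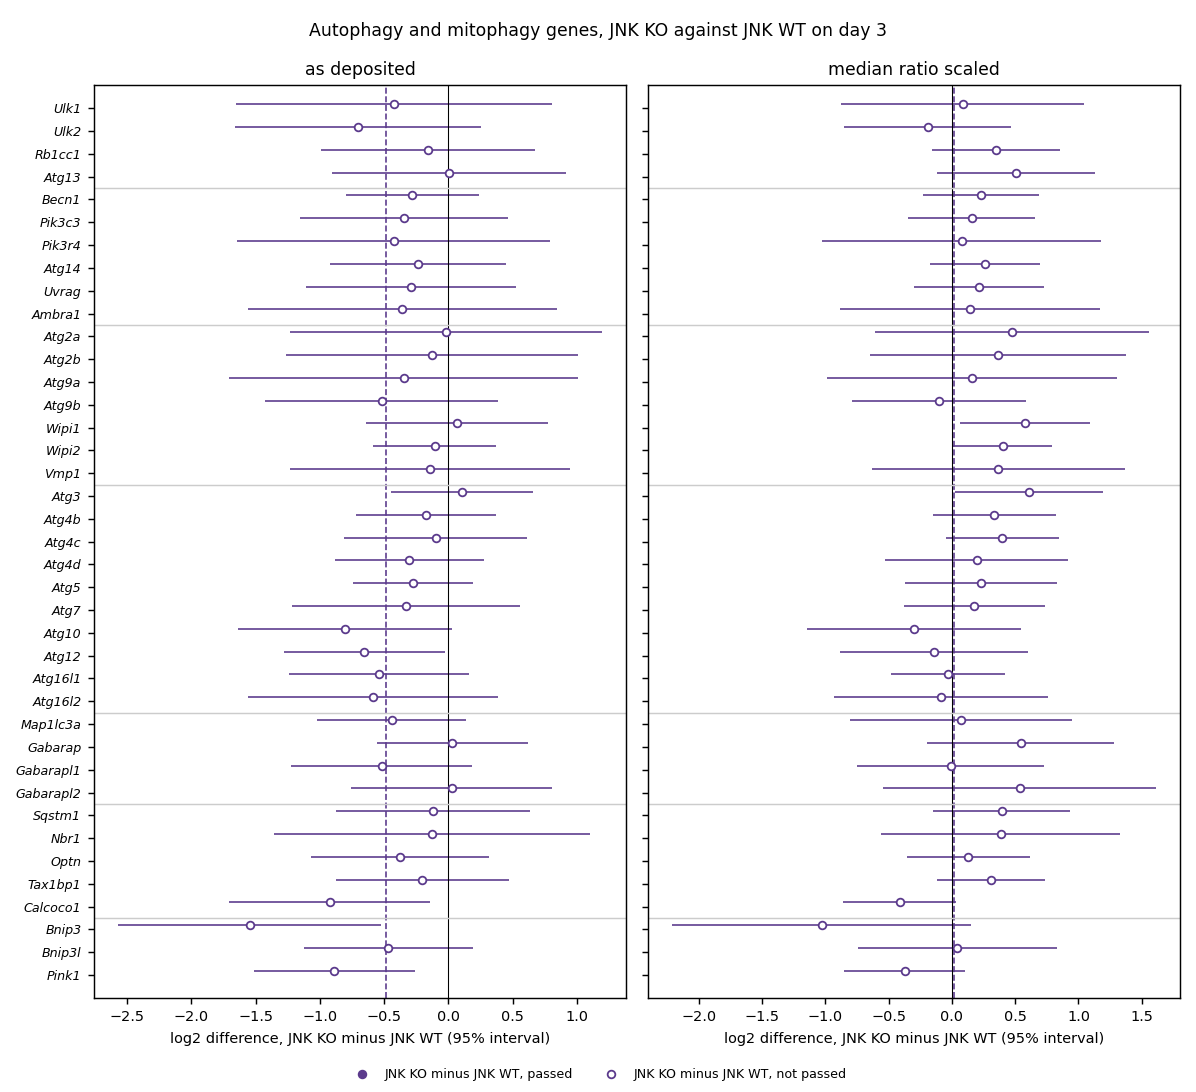
Log2 difference of JNK KO minus JNK WT on day 3 (horizontal axis) for the 39 members, grouped by role, as deposited (left) and median ratio scaled (right); bars are 95% intervals and the dashed line marks the median of all genes. No point is filled, since 0 members passed, and Bnip3 lies lowest on both sides at -1.55 and -1.03.

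The change from day 0 to day 3 was also compared between the genotypes. Of the 39 members 0 passed on either scale, where 0.00689% of all genes passed in each direction. An unadjusted p under 0.05 was reached by 2 members on deposited and 3 on scaled values, and by 18.6% and 13.0% of all genes. Without JNK WT day 0 library 1 the count of members that passed was again 0 here and on day 0, where between 0.00690% and 0.0207% of all genes passed in a direction. The members' median difference in change, JNK KO minus JNK WT, was -0.57 on deposited values, beside -0.67 over all genes, and 0.15 on scaled values, beside 0.00. The summed scaled FPKM of the 39 members on day 3 was 587 to 628 in JNK WT and 747 to 769 in JNK KO, without overlap. On day 0 it was 735 to 752 in JNK WT libraries 2 and 3, 1213 in library 1 and 752 to 772 in JNK KO. Such a sum is weighted to abundant members. On day 3 the scaled means were 168 in JNK WT and 245 in JNK KO for Gabarap, and 84.4 and 112 for Sqstm1, neither passing. The summed deposited FPKM on day 3 was 1476 to 1653 in JNK WT and 1037 to 1565 in JNK KO, with overlap.

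The wider pathway was counted on scaled values in 4 lists, beside 19.3% of all genes passing as higher and 16.1% as lower in JNK WT, with 11.5% and 9.55% for JNK KO. Of 22 upstream regulators tested, 4 rose and 4 fell in JNK WT and 1 rose and 5 fell in JNK KO, the medians being -0.04 and -0.22. Prkaa2, a catalytic subunit of the energy sensor AMPK, fell by 3.41 and 3.76 log2 (by 0.96 and 2.02 as deposited, the first not passing), and Rheb, the activator of mTORC1, fell by 2.75 and 1.64 (at -0.26 and 0.13 as deposited, neither passing). Deptor, an inhibitor of mTOR, fell by 1.76 in JNK KO and did not pass there as deposited. Among the rises were Sesn1 (1.48) and Prkaa1 (1.29) in JNK WT and Sesn2 in both genotypes (1.18 and 1.14), the sestrins being stress-induced inhibitors of mTORC1.

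Of 17 genes of autophagosome to lysosome fusion, 1 rose and 3 fell in JNK WT and 1 rose and 2 fell in JNK KO on scaled values, with medians of 0.06 and -0.09. The rise was Lamp2, a lysosomal membrane protein, at 0.64 and 0.69. The SNARE genes Snap29 (-1.71 in JNK WT and -1.16 in JNK KO), Stx17 (-0.88 and -0.70) and Ykt6 (-1.0 in JNK WT) fell after scaling, whereas their deposited values rose by 0.76 and 0.59, by 1.54 and 1.0, and by 1.49. Of 14 further receptors and mitophagy genes, 3 rose and 2 fell in JNK WT and 1 rose and 2 fell in JNK KO, with medians of -0.03 and -0.21. Fam134b, a receptor for the endoplasmic reticulum, fell by 4.01 and 3.18 log2 after scaling and by 1.52 and 1.42 as deposited, all passing. Tbk1, a kinase of cargo receptors, fell by 1.02 and 0.58 after scaling, against deposited rises of 1.44 and 1.16, and Stbd1 (1.66) and Trim65 (0.88) rose in JNK WT and Tex264 in both genotypes (0.63 and 0.75).

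Hypoxia-induced genes were counted beside Bnip3, a known target of hypoxia-inducible factors, and did not move as 1 group. Of 12 tested, 4 rose and 3 fell in JNK WT and 1 rose and 2 fell in JNK KO on scaled values, with medians of -0.19 and -0.30, beside the same shares of all genes (19.3% and 16.1%, then 11.5% and 9.55%). Pfkfb3, a glycolytic regulator, rose by 3.80 and 1.69 log2, and Adm by 1.5 in JNK WT. Pdk1, which restrains pyruvate oxidation, was at -2.46 and -2.39 after scaling and at 0.01 and -0.64 as deposited, and the glucose carrier Slc2a1 was at -2.05 and -1.18 after scaling and at 0.43 and 0.58 as deposited. Between the genotypes on day 3, 2 genes of these 4 lists passed, both as lower in JNK KO on deposited values and neither after scaling. Of all genes 5.62% passed as lower and 0.544% as higher on deposited values. Stbd1, which binds glycogen to autophagosomes, was at 4.85, 3.74 and 3.78 FPKM for JNK WT against 0.729, 1.36 and 1.87 FPKM for JNK KO, a difference of -1.65 (limma adjusted p = 0.030; -1.11 with adjusted p = 0.24 after scaling). P4ha1, a collagen prolyl hydroxylase subunit, was at 13.7, 11.9 and 15.2 against 5.08, 4.88 and 7.33 FPKM, a difference of -1.24 (adjusted p = 0.0345; -0.72 with adjusted p = 0.15 after scaling).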

How the data were processed

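RNA from mammary glands, in 12 libraries and 4 groups of 3, was sequenced by the authors as paired-end reads, trimmed with Trimmomatic, aligned to GRCm38 (Ensembl) with Bowtie2 and TopHat2 2.0.14, and quantified with Cufflinks 2.2.1. The deposited values are FPKM per gene model and library. Strand handling is not given in the sources used here, and the FPKM values used here hold no read counts. The study states read depth as group means only, so the depth of a single library is unknown. Columns with the authors' own comparison of JNK WT days were not used.

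Values were transformed as log2(FPKM + 0.1), so that fold changes of low genes are understated, and genes were kept if 3 or more libraries reached 0.5 FPKM. The 4 groups were fitted in limma 3.58.1 (R 4.3.3) with a trended prior, moderated tests were two-sided, and Benjamini-Hochberg adjustment ran over all genes in each of 5 comparisons, with an adjusted p under 0.05 as the threshold. The smallest p of an exact permutation test for groups of 3 is 0.1. Each fit was made on deposited and on median ratio scaled values, because milk transcripts take most of the day 0 FPKM and FPKM is relative to the whole library. The fit was tested on simulated data before use. Alternatives were another pseudocount, a stricter and no filter, 75th percentile scaling, a fit on the compared groups alone, and each library left out.

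Members were given library by library where they passed in a genotype comparison, were among the 5 largest called rises or 5 largest called falls of a scaled day comparison, or had the highest mean FPKM of their role. Bnip3, Nbr1, Ulk2 and other members given singly were chosen after their values were seen. The members and all lists were chosen with earlier results of these data known.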

Additional observations from a re-analysis of the deposited data

Results flagged for a closer look

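Atg4d, a protease that trims Atg8 proteins, had day differences of opposite sign in the genotypes on scaled values, -0.59 (limma adjusted p = 0.18) in JNK WT and 0.28 (adjusted p = 0.60) in JNK KO, neither passing. Its scaled FPKM was 7.45, 2.79 and 2.71 in JNK WT on day 0 and 2.65, 2.59 and 2.32 on day 3, and 2.42, 2.62 and 2.13 and then 2.94, 3.11 and 2.67 in JNK KO. Each day 3 library was below all day 0 libraries in JNK WT and above them in JNK KO. The difference in change was 0.87 (limma adjusted p = 0.46) and did not pass. Without JNK WT day 0 library 1, which was at 7.45, the change was -0.13 in JNK WT and 0.27 in JNK KO. Exons of Kri1 on the other strand overlap 19.3% of those of Atg4d. Groups of 3 libraries are too small for a test of a single outlying value.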

How the results depend on the processing

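No paired analysis was possible because the numbers in the deposited columns are not tied to the replicate numbers of the labels. No called result changed direction under the alternatives run, while some that did not pass did: without JNK WT day 0 library 1 the scaled day differences in JNK WT turned from -0.32 to 0.11 for Gabarap and from -0.45 to 0.06 for Bnip3l. For the members, deposited day counts stayed within 34 to 38 (JNK WT) and 31 to 37 (JNK KO) calls over all alternatives. On scaled values, the fit on the 2 groups alone gave 6 calls in JNK WT and 13 in JNK KO in place of 11 and 5. Leaving out 1 library gave 6 to 18 calls in JNK WT and 3 to 17 in JNK KO: 18 and 17 came without JNK WT day 0 library 1, 6 without JNK WT day 3 library 12, and 3 without any 1 of 4 JNK KO libraries (2 and 3 of day 0, 4 and 6 of day 3). Between genotypes on day 3, deposited values gave 2 calls with a pseudocount of 1, 1 with the fit on the 2 groups, and 0 to 4 with 1 library left out, and scaled values gave 0 to 2, the highest counts coming without JNK WT day 0 library 1. On day 0 and for the change, 0 members were called under every alternative. Refits of single members were counted for called results and for genotype differences of day 3 with an unadjusted p under 0.05, of which 1544 kept their side of the threshold, 83 fell short of it and 7 came past it; members called in an alternative alone are not in these counts. FPKM without read counts leaves the counting error of low genes such as Atg9b and Atg16l2 unknown.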
